A study of Mus musculus with 15 samples.

Results

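Crtam, Cd96 and Cd226 encode receptors of the immunoglobulin superfamily carried by T cells and natural killer cells, and Cadm1 and Pvr encode nectin-like molecules that serve as their ligands. These 5 genes were followed in mouse heart and liver allografts over every array probe that a RefSeq accession tied to them, which gave 13 of the 41003 probes tested and 5 of 18169 named genes. Crtam and Cd96 were chosen by their measured rise in allografts on these same arrays, so their allograft and control signals are given as a description without a test. Cd226, Cadm1 and Pvr entered as the related receptor and the ligands.

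Total RNA was measured on 15 one-colour Agilent arrays in 5 groups of 3. The heart allografts came from male C57BL/10 (B10) donors, were placed in the abdomen of CBA recipients as a second, heterotopic heart, and were taken on postoperative day (POD) 5. The liver allografts came from male B10.BR (BR) donors, replaced the liver of B10.D2 (D2) recipients, and were taken on POD5 or POD8. Normal heart and normal liver were the controls, with 3 arrays each and with a strain and an age that are not given in the sources used here. The study also speaks of its controls as syngeneic grafts, so a part of surgery in the differences cannot be told apart from that of the foreign graft. Heart and liver differed in donor and recipient strain as well as in organ. The sources speak of separate mice and tissues within a group without tying each array to an animal, and P-values measure the spread between the arrays.

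CRTAM appears on activated cytotoxic T cells and natural killer cells and binds CADM1, also called nectin-like protein 2. CD226 and CD96 bind PVR, the poliovirus receptor or CD155. CD226 is an activating receptor, whereas CD96 competes with it for PVR and has been described as inhibitory. CADM1 is an adhesion molecule of epithelium and nerve, and is also carried by mast cells and by the dendritic cells that cross-present antigen. PVR is found on epithelium, endothelium and many stressed cells.

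Signals below are Agilent processed signals after quantile normalization, in arbitrary units, and differences are in log2 of that signal. A probe counts as measured on an array where the scanner software marked it well above background. Signals of different probes cannot be set against each other. The upper quartile of the signal before normalization ran from 394 to 710 on the heart allografts, from 1021 to 1247 on the heart controls, from 338 to 478 on the POD5 livers, from 384 to 454 on the POD8 livers and from 92.1 to 226 on the liver controls, and 52.5% to 70.4% of probes were well above background. The arrays lay on 6 slides. All 3 heart allografts shared a slide with 1 POD5 liver, and all 3 heart controls shared another, so the effects of slide and of transplantation cannot be told apart there. The POD5 livers shared no slide with the liver controls or the POD8 livers. The heart controls shared none with the liver controls. In those comparisons slide and group cannot be told apart either. The labelled organs carried their markers, since all 4 hepatocyte markers were higher in liver controls and all 4 cardiomyocyte markers in heart controls. Alb, Apoa1 and Ttr were not well above background on any heart array, whereas Cyp2e1 was on 4 of 6, at up to 680. Myh6 was not well above background on any liver array, whereas Actc1 was on all 9, at up to 1623, and Tnnt2 on 4.

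The promoter of Cd96 is shown because Cd96 stood higher in the allografts of both organs, and because the RefSeq promoter table held it and no promoter of the other members. It covers GRCm38.p6 chr16:46120199-46120498 on the minus strand, from 250 bases before the transcription start to 50 bases after it. Capitals mark GGAAA (the core bound by NFAT factors), TGTGGT (bound by Runx factors) and TTCNNNGAA (the gamma-activated site bound by STAT factors) on either strand.
Cd96 promoter: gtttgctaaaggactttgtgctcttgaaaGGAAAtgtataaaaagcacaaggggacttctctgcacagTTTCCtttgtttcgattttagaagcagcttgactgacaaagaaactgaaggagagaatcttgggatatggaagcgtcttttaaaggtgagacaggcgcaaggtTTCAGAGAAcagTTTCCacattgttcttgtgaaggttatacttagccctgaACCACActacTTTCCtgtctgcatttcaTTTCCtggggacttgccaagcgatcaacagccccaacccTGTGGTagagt
GGAAA occurred once on the strand of the gene and 4 times on the opposite strand, and 61.3% of the 32851 promoters of the same length held it on either strand. TGTGGT occurred once on each strand, against a share of 16.8% of promoters. TTCNNNGAA, which reads the same on both strands, occurred once, against 8.3%. The shorter ETS core GGAA, which lies inside GGAAA, occurred 6 times, and 96% of promoters held it. The T-box motif TCACACC, the E-box CANNTG and the interferon response motif were not in this window, and 3.98%, 72.3% and 3.44% of promoters held them. These are matches of letters and not sites of binding. The study also designed a primer pair for Crtam, shown here since its transcript is the one the array probe names.
Crtam forward primer: ccattcagctacacaactctccatta
Crtam reverse primer: aaggagtcactaacacggtcact

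Crtam was low in both control organs and high in all 9 allografts. Its single probe, A_51_P150302, gave 958, 1094 and 1658 in the heart allografts and 21.8, 28.0 and 30.5 in the heart controls. All heart arrays were well above background, no allograft came near a control, and the means differed by 5.50 in log2, or 45.4-fold. In liver the signal was 347, 451 and 668 on POD5, 314, 299 and 240 on POD8, and 22.9, 12.1 and 18.7 in the controls. No liver control was well above background, so the rise there has only a lower bound in normalized signal. It was at least 22.8-fold on POD5 and at least 13.7-fold on POD8. The bound sets the mean of the allografts against the higher of a control array's own signal and the lowest signal that array measured well above background. It holds for this normalized signal only, and the liver differences fitted with another background correction, given at the end, were smaller. Over the 5 groups the order of the signals was heart POD5, liver POD5, liver POD8, heart controls and liver controls, and only the neighbouring ranges of the 2 control groups overlapped.

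Cd96 also stood apart from controls on all 9 allografts. Probe A_52_P279425 gave 282, 150 and 357 in the heart allografts against 24.2, 23.6 and 36.4 in the heart controls, a difference of 3.17 or 9.0-fold. The second heart allograft was the lowest of its group and was still above every control. In liver it gave 126, 148 and 74.0 on POD5 and 143, 158 and 139 on POD8. The liver controls gave 2.40, 2.34 and 2.51, none of them well above background. In normalized signal the rise was at least 5.39-fold on POD5 and at least 7.09-fold on POD8. With the other background correction the fitted liver differences of Cd96 were also smaller than these bounds. The 2 liver comparisons share their controls. The highest signals came from 2 of the heart allografts, the second heart allograft lay within the range of the POD8 livers, and the ranges of the POD5 and POD8 livers overlapped.

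**Figure D1:**
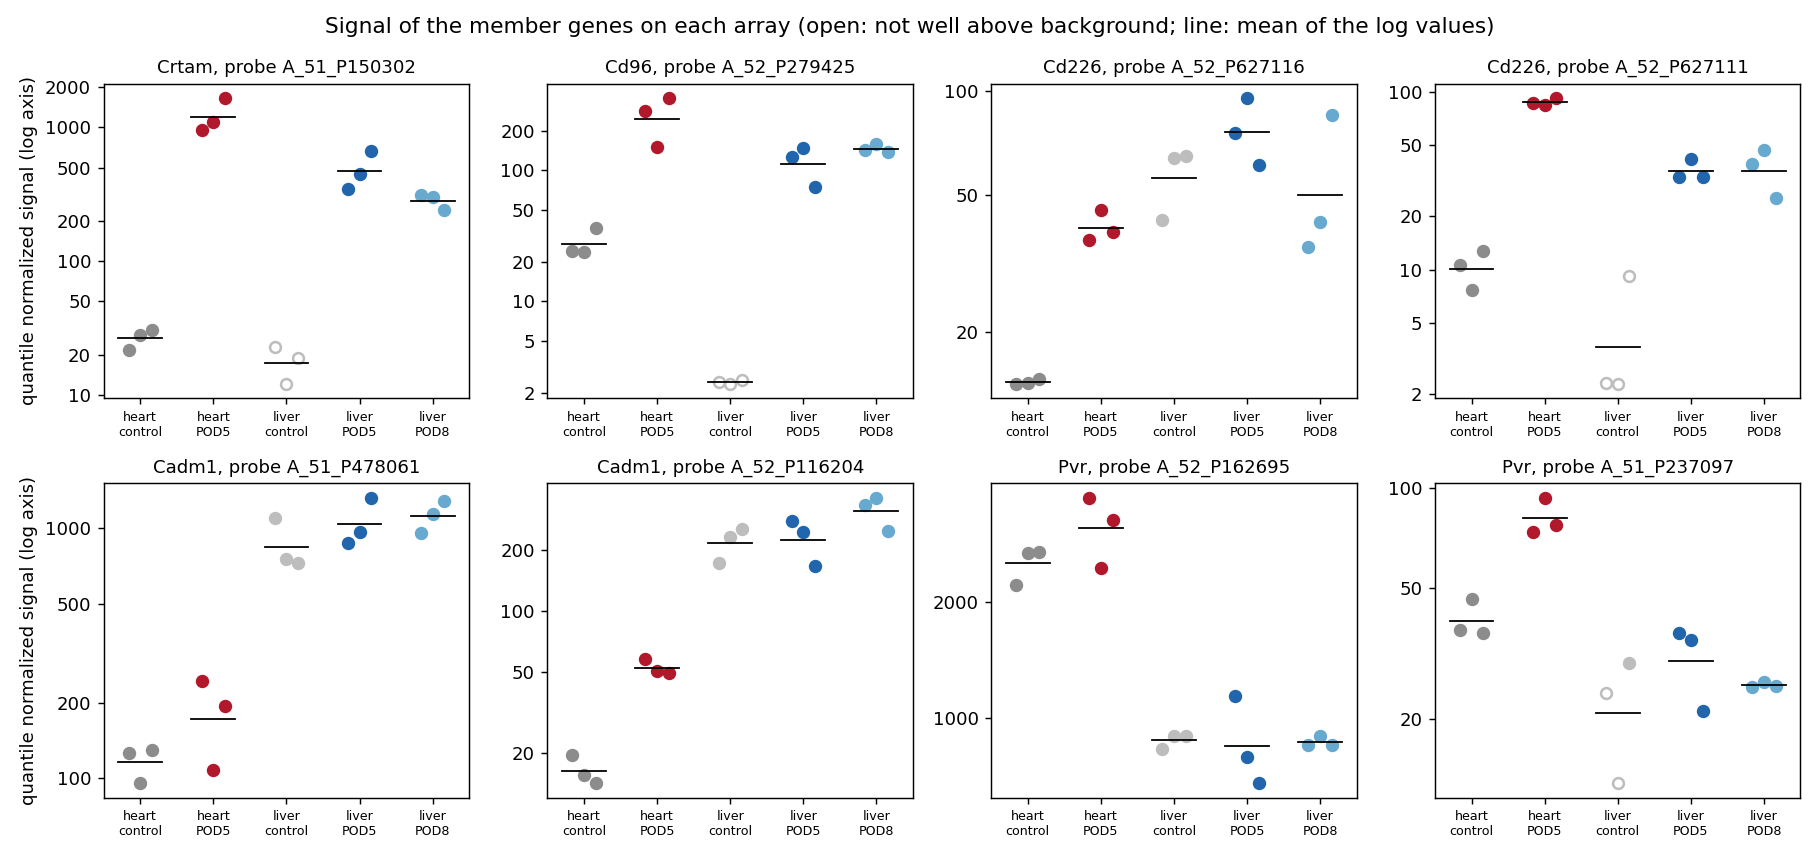
Quantile normalized signal on a log axis for 8 probes of the 5 genes, with 1 point per array, 3 arrays per group, and a line at the mean of the log values. Open points were not well above background. Crtam and Cd96 separate every allograft from every control, whereas the Pvr probe A_52_P162695 lies between 675 and 1140 in all liver arrays.

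From POD5 to POD8 in liver, neither Crtam nor Cd96 passed the test, though the signals of Crtam were lower. The contrast of the days did not choose the genes, but the signals of both days entered the rises that did. All 3 POD8 signals of Crtam lay below all 3 POD5 signals, with a log2 difference of -0.74 (95% confidence interval -1.39 to -0.09). The adjusted P was 0.478, so the difference did not pass the threshold of 0.05 over all probes. For Cd96 the difference was 0.39 (-0.30 to 1.09, adjusted P = 0.732) and the days overlapped. Only 12 of 41003 probes, or 0.0293%, passed in this comparison, and none of the 13 probes of the 5 genes did.

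Both receptors were measured in the heart controls and not in the liver controls. These signals entered the rises that chose the genes and are given without a test. Cd96 was well above background in all 3 heart controls and in no liver control, and was at least 1.33-fold higher in heart. Crtam was likewise measured in all heart controls and in no liver control, and the ranges of the 2 organs overlapped. Because the liver baseline of both genes is only bounded, the sizes of their rises in heart and liver have no common base. The fitted rise of Crtam was 0.74 larger in heart, and that of Cd96 was 2.36 smaller in heart and turned to 0.38 larger with another background correction, normexp. Normexp was run on the median spot signals and added an offset of 50 to the corrected signals. An added constant of this size draws the log2 values of dim signals together. For dim probes, calls lost under normexp cannot be told apart from this shrinkage.

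The receptor that shares PVR with CD96, Cd226, gave different answers on different probes. It was represented by 4 probes, of which the brightest was matched to a different RefSeq transcript than the others. The brightest, A_52_P627116, gave 36.8, 45.2 and 38.8 in the heart allografts and 14.1, 14.2 and 14.6 in the heart controls. Every heart allograft was above every control, and the difference of 1.49 (0.84 to 2.13), or 2.80-fold, passed the test (adjusted P = 0.00272). With normexp it was 0.44 and the adjusted P was 0.0520. In liver this probe gave 75.4, 95.5 and 60.8 on POD5, 35.2, 41.5 and 85.0 on POD8, and 42.2, 63.8 and 64.6 in controls. All liver groups overlapped, with differences from controls of 0.44 (-0.20 to 1.09, adjusted P = 0.343) on POD5 and -0.16 (-0.81 to 0.48, adjusted P = 0.775) on POD8. Before normalization the probe read 86.2, 96.1 and 44.3 on POD5, all above the 9.77, 21.9 and 35.3 of the liver controls. The overlap on POD5 therefore rests on the scaling of the dim liver control arrays.

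The second Cd226 probe, A_52_P627111, separated allografts from controls in both organs. It gave 86.9, 84.4 and 92.6 in the heart allografts and 10.6, 7.69 and 12.8 in the heart controls, which is 8.66-fold (log2 3.12, 2.13 to 4.10, adjusted P = 3.46e-04). In liver it gave 33.3, 42.0 and 33.4 on POD5 and 39.4, 47.3 and 25.3 on POD8. The liver controls gave 2.31, 2.28 and 9.23, none of them well above background. The rise was at least 1.75-fold on both days. The fitted log2 differences were 3.30 on POD5 (adjusted P = 5.58e-04) and 3.31 on POD8 (adjusted P = 6.12e-04), and the P-values belong to these and not to the bound. These 3 calls held under normalization within the groups compared, under scaling to the upper quartile, under normexp and with slide as a random block.

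The remaining Cd226 probes were dim. A_52_P416327 gave between 2.10 and 26.6 on all arrays, with 0.18 in heart (adjusted P = 0.831) and calls in liver of 2.42 (adjusted P = 0.00316) and 2.60 (adjusted P = 0.00241), neither of which held under normexp. A_52_P416331 ran from 2.41 to 12.3, was not well above background on any liver array, and its calls in all 3 comparisons were lost under normexp. The probes also disagreed between the control organs, where 54.0% of all probes passed. A_52_P627116 was lower in heart than in liver controls by 1.96 in log2 (adjusted P = 1.20e-04), while the other 3 probes were higher in heart, by 1.27 to 2.84, with no liver control well above background. Before normalization A_52_P627116 read 33.1, 26.4 and 28.2 in the heart controls and 9.77, 21.9 and 35.3 in the liver controls, which overlap.

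Cadm1, the ligand of CRTAM, was higher in normalized signal in liver than in heart and did not pass the test in any liver comparison. The brightest of its 3 probes, A_51_P478061, gave 1106, 755 and 726 in the liver controls and 126, 94.9 and 129 in the heart controls. Heart was lower by 2.87 in log2 (adjusted P = 4.53e-06), and all 3 probes passed in that direction, with differences from -3.74 to -2.87. In liver allografts the probe gave 875, 972 and 1329 on POD5 and 956, 1148 and 1284 on POD8. Both days overlapped the controls, at 0.30 (-0.34 to 0.94, adjusted P = 0.541) and 0.41 (-0.23 to 1.05, adjusted P = 0.399). Before normalization the probe read 250, 302 and 386 in the liver controls and 353, 206 and 307 in the heart controls, which overlap, and between 854 and 1290 in the liver allografts, all above the liver controls. Both statements on Cadm1 therefore rest on the scaling of the dim liver control arrays. For this probe they held under scaling to the upper quartile and under normexp.

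In heart allografts the Cadm1 probes ranged from no call to a 3.24-fold rise. A_51_P478061 gave 245, 107 and 195, a difference of 0.58 (-0.06 to 1.22, adjusted P = 0.166). The second allograft lay within the range of the controls, and without it the difference was 0.92 and passed (adjusted P = 0.0192). A_52_P589754, against the same RefSeq transcript, gave 203, 129 and 153 against 119, 83.5 and 112, with 0.61 and adjusted P = 0.113. A_52_P116204, matched to a different transcript of the gene, gave 57.7, 50.7 and 49.5 against 19.5, 15.5 and 14.1. It rose by 1.69 (1.20 to 2.19, adjusted P = 2.07e-04), a call that held under all 4 alternatives named for Cd226. Its rise was 1.64 larger in heart than in liver on POD5 (0.94 to 2.34, adjusted P = 0.00584), a difference that passed in 18.0% of all probes and that fell to 0.42 under normexp (adjusted P = 0.202). Before normalization A_52_P116204 read 100, 45.2 and 85.1 against 47, 28.8 and 27.3 in heart. On liver POD5 it read 306, 234 and 124 against 37.3, 84.4 and 133. Both overlap, so the separation in heart and the larger rise there rest on the scaling of the arrays.

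Pvr, the ligand of CD96 and CD226, was higher in heart than in liver. Its brightest probe, A_52_P162695, gave 2213, 2689 and 2705 in the heart controls and 828, 896 and 899 in the liver controls, which is 2.89-fold (log2 1.53, adjusted P = 3.42e-05). All 4 probes were higher in heart, by 0.93 to 1.53. On their brightest probes, the differences of Cd226, Cadm1 and Pvr between the control organs were not called by the study's own method, SFC, or by its t-test after Bonferroni adjustment. Against the heart controls the heart allografts gave 3736, 2458 and 3270, a difference of 0.30 (-0.13 to 0.73, adjusted P = 0.293), and the groups overlapped. In liver the same probe gave 1140, 790 and 675 on POD5 and 850, 898 and 849 on POD8, with differences of -0.04 (-0.48 to 0.39, adjusted P = 0.926) and -0.01 (-0.45 to 0.42, adjusted P = 0.981).

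Among the other Pvr probes, 2 rose in normalized signal in the heart allografts. A_52_P628590 gave 573, 503 and 528 against 336, 411 and 342, a rise of 0.56 (adjusted P = 0.0170) that missed the threshold with slide as a random block (0.50, adjusted P = 0.114). A_51_P237097 gave 73.9, 93.6 and 77.6 against 37.3, 46.2 and 36.4, a 2.05-fold rise (log2 1.03, adjusted P = 0.0172). Before normalization A_52_P628590 read 888, 452 and 828 against 946, 936 and 821, and A_51_P237097 read 129, 82.3 and 132 against 94.6, 94.1 and 76.2. Both overlap, so these 2 rises rest on the scaling of the arrays. A_52_P162697 differed by 0.08 (adjusted P = 0.812). No Pvr probe passed in either liver comparison. Before normalization A_52_P162695 read between 536 and 1205 in the liver allografts and between 183 and 485 in the liver controls. The lack of a liver difference on that probe therefore rests on the scaling of the dim liver control arrays.

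**Figure D2:**
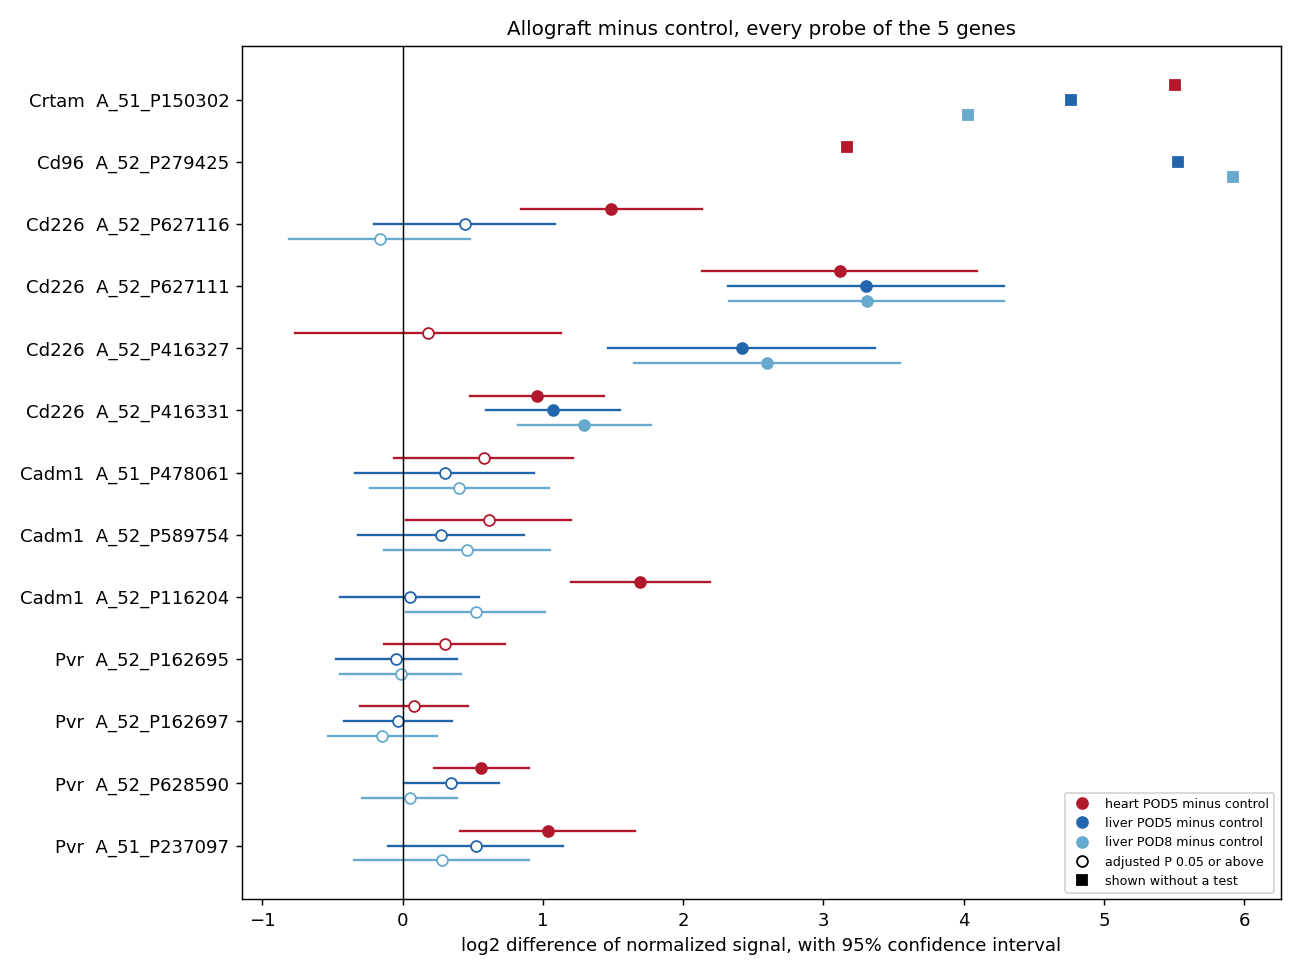
Log2 difference of allografts from controls for the 13 probes of the 5 genes, with 95% confidence intervals. Filled circles had an adjusted P under 0.05, and squares are the values of Crtam and Cd96, shown without a test. Where liver controls were not well above background (Crtam, Cd96 and 3 Cd226 probes) a liver point is a fitted value and no bound.

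Set against all probes, the counts were as follows. In heart, 13.3% of all probes were called higher and 15.3% lower, and in 29.0% and 25.7% all 3 allografts lay above or below all 3 controls. Of the 4 Cd226 probes 3 were called higher, of the 3 Cadm1 probes 1, of the 4 Pvr probes 2, and none was called lower. On liver POD5, 8.12% were called higher and 7.02% lower, with 12.4% and 18.8% wholly above or below the controls. On liver POD8 these shares were 7.02% and 4.65%, with 12.9% and 18.6%. On both days 3 Cd226 probes were called higher, and no Cadm1 or Pvr probe was called. Crtam and Cd96 lay wholly above controls in all 3 comparisons, from which nothing is read because that contrast chose them. On POD8, 2 allografts and 2 controls shared a slide. Within it the differences on the brightest probes were 4.20 for Crtam, 5.98 for Cd96, -0.44 for Cd226, 0.20 for Cadm1 and 0.02 for Pvr. The Cd226 value is that of A_52_P627116 alone, which was not among the Cd226 probes called in liver. A fit with slide as a fixed block gave the same values, and neither setting called any probe on the array.

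In normalized signal on the brightest probe of each gene, calls in the wider nectin family were mostly towards lower signals in allografts. Other probes of the same genes often differed. Nectins are adhesion molecules of cell junctions, and Nectin2 is a further ligand of CD226. Of 9 listed genes, 7 had a named probe, and Tigit and Pvrig, which encode inhibitory receptors of the same axis, had none. In heart 2 of the 7 were lower and none higher on that probe, against 15.3% and 13.3% of all probes. Nectin1 gave 184, 143 and 151 against 570, 358 and 470, a fall of 1.53 in log2 (adjusted P = 0.0153). Nectin3 gave 556, 589 and 470 against 1792, 1405 and 1576, and fell by 1.56 (adjusted P = 4.99e-06). The median over the 7 genes was -0.30, against 0.02 over all probes. Other probes gave further calls in heart. A second Nectin4 probe, A_52_P24835, fell by 2.64 (adjusted P = 7.39e-04), from 30.5, 40.1 and 36.0 to 8.32, 2.80 and 7.75, while its brightest probe differed by 0.90 (adjusted P = 0.0758). A second Nectin2 probe, A_51_P475858, rose by 0.80 (adjusted P = 0.0158), a call lost under normexp and with slide as a random block, while its brightest probe differed by 0.08 (adjusted P = 0.791).

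On liver POD5, 3 of the 7 were lower and none higher, against 7.02% and 8.12% of all probes. Nectin2 fell by 0.61 (adjusted P = 0.0354), Nectin3 by 0.58 (adjusted P = 0.00952) and Cadm3, a nectin-like gene of the nervous system, by 1.21 (adjusted P = 0.0244). None of these 3 passed when normalization and fit were limited to the groups compared, and no other probe of these 3 genes passed. The second Cadm3 probe, A_52_P553013, differed by 0.15 (adjusted P = 0.825), in the opposite direction. Before normalization the brightest Nectin3 probe read 2067, 1842 and 1727 on POD5 against 806, 1299 and 1810 in controls. That of Nectin2 read 1832, 1306 and 1841 against 637, 1377 and 1469, and that of Cadm3 34.3, 43.7 and 28.6 against 14.9, 47.5 and 35.2. The falls on POD5 therefore rest on the scaling of the dim liver control arrays. On POD8, where 4.65% of all probes were called lower and 7.02% higher, Cadm3 fell by 1.53 (adjusted P = 0.00848) and Cadm4 by 1.35 (adjusted P = 0.0322). Neither passed in that narrower fit. Before normalization both overlapped the controls, with Cadm4 at 113, 81.5 and 234 against 81.6, 98.1 and 228. On the second Cadm3 probe the difference was -0.32 (adjusted P = 0.572). Nectin4 was called higher on POD8 (2.41, adjusted P = 9.98e-04), from 13.3, 13.1 and 10.6 against 2.34, 2.31 and 2.28 with no control well above background, and was not called under normexp (0.18, adjusted P = 0.307). The medians of the list were -0.58 and -0.50, against -0.07 and -0.08 over all probes. Cadm2 was well above background on at most 1 array of any group. The fall of Nectin3 was 0.98 larger in heart than in liver on POD5 (adjusted P = 0.00423).

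Among genes that work beside these molecules, the 2 chains of the leukocyte integrin LFA-1, Itgal and Itgb2, rose in all 3 comparisons. Itgal gave 1028, 684 and 1233 in the heart allografts against 98.5, 77.2 and 92.6, a difference of 3.42 (adjusted P = 2.31e-06), and rose by 1.48 and 1.51 in liver (adjusted P = 0.00217 and 0.00232). Its rise was 1.94 larger in heart than in liver on POD5 (adjusted P = 0.00411). Before normalization Itgal read 1535, 620 and 1831 against 273, 164 and 216 in heart. On liver POD5 it read 853, 751 and 685 against 42.8, 144 and 176. On these signals the rise was not larger in heart, so that difference rests on the scaling of the arrays. Itgb2 rose by 2.07, 2.30 and 2.61 (adjusted P = 0.00278, 0.00311 and 0.00169). On liver POD5 both missed the threshold when normalization and fit were limited to the groups compared (adjusted P = 0.0506 and 0.0675).

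Afdn, whose product afadin binds the tails of nectins, fell by 1.06 in heart (adjusted P = 0.00668) and was not called in liver. Epb41l3, encoding a protein 4.1 family member that binds CADM1, went in opposite directions in the 2 organs. It fell by 1.20 in heart (adjusted P = 0.0414, and 0.206 with slide as a random block). In liver it was at least 2.07-fold higher on POD5 and at least 2.78-fold higher on POD8, from controls not well above background. The fitted differences passed (adjusted P = 0.0136 and 0.00485), and these P-values do not test the bounds. With normalization limited to the groups compared, the 2 liver calls were lost (adjusted P = 0.170 and 0.0837). Scrib was not called in any comparison, and Fyn had no named probe. Counted over the 5 measured partners, 2 were higher and 2 lower in heart, and 3 were higher and none lower on each liver day. Over all probes 13.3% were called higher and 15.3% lower in heart, 8.12% and 7.02% on POD5, and 7.02% and 4.65% on POD8.

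**Figure D3:**
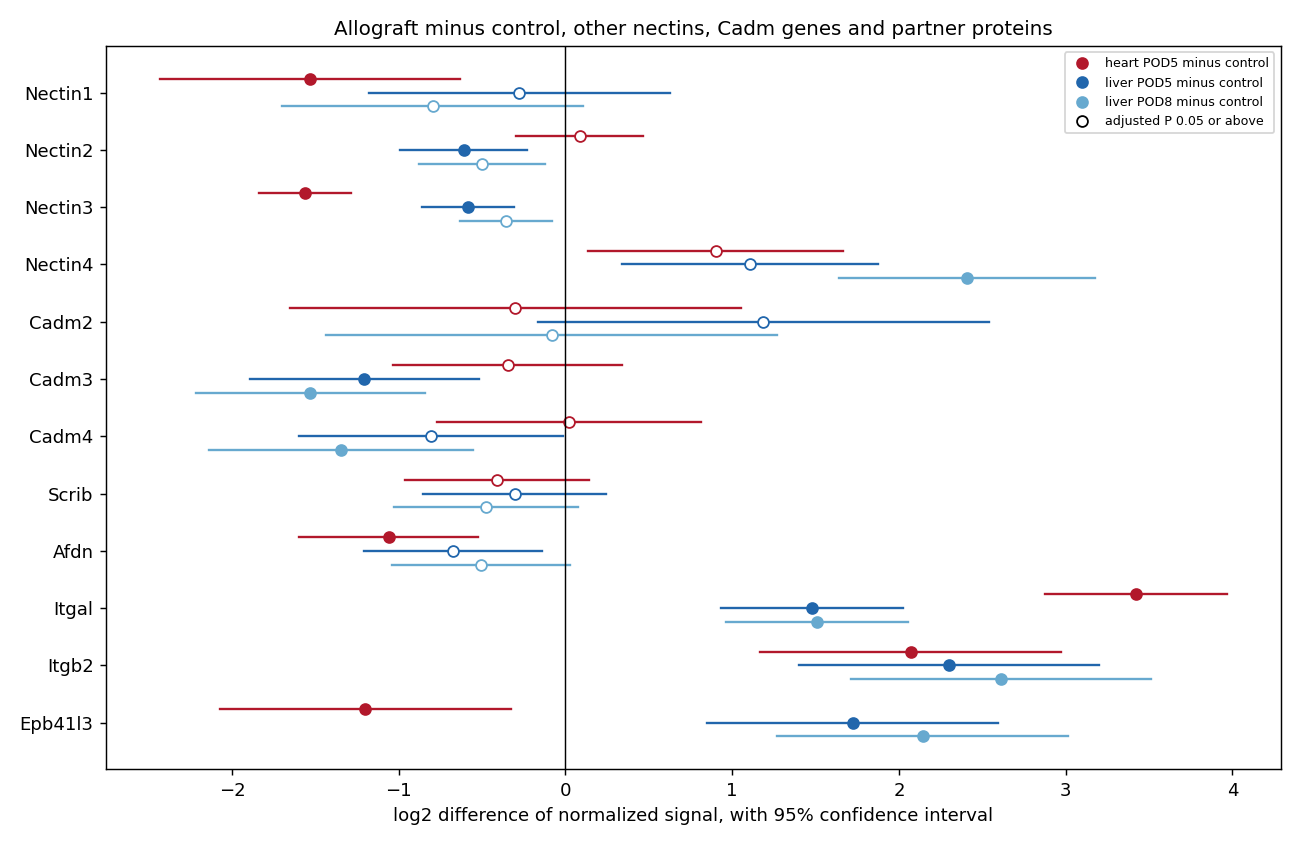
Log2 difference of allografts from controls for 7 nectin and nectin-like genes and 5 partner genes, with 95% confidence intervals (filled circles, adjusted P under 0.05). Itgal and Itgb2 lie above 0 in all 3 comparisons, and Epb41l3 lies below 0 in heart and above 0 in liver.

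In normalized signal most T cell and natural killer cell markers were higher in the allografts, whereas B cell markers and Cd4 mostly were not. In bulk tissue, more cells of a type and more RNA per cell cannot be told apart. Of 5 T cell markers (Cd3e, Cd3d, Cd3g, Cd2 and Lck) all 5 rose in heart and 4 on each liver day, with Cd3e the exception at 0.74 and 0.71. Over all probes 13.3% were called higher in heart, 8.12% on POD5 and 7.02% on POD8. The median differences of the 5 T cell markers were 4.17, 4.84 and 4.23, and of these genes Cd3g on 1 liver control and Cd2 on 2 were not well above background. Their summed signal was 350 to 521 in heart controls, 7745 to 10599 in heart allografts, 309 to 429 in liver controls, 5181 to 8879 on POD5 and 4053 to 5246 on POD8. Cd8a, the one measured marker of cytotoxic T cells, rose by 6.02 in heart (adjusted P = 7.69e-08). In liver, where no control was well above background, it was at least 102-fold higher on POD5 (adjusted P = 1.29e-07) and at least 103-fold higher on POD8 (adjusted P = 1.25e-07). Cd4, which marks helper T cells, rose by 0.77 in heart (adjusted P = 0.00326), and its differences in liver were -0.16 (adjusted P = 0.555) and -0.40 (adjusted P = 0.126). Before normalization Cd4 read 28.5 to 50.3 on POD5 and 30.1 to 39.7 on POD8, above the 10.7 to 27.9 of the liver controls. In heart it read 49, 34.8 and 47.3 against 37.2, 39.5 and 35, which overlap. Cd3e before normalization also lay above the liver controls on both days. The Cd4 results and the Cd3e exception therefore rest on the scaling of the arrays.

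Of 4 natural killer cell markers (Ncr1, Klrb1c, Klre1 and Klra8), 4 rose in heart, 2 on liver POD5 and 4 on POD8. Their summed signal was 156 to 198 in heart controls, 618 to 799 in heart allografts, 35.5 to 63.2 in liver controls, 103 to 183 on POD5 and 149 to 245 on POD8. Ncr1, Klre1 and Klra8 were not well above background in any liver control, where Crtam and Cd96 were not either. Of 3 B cell markers 1 was higher in heart and none was called in liver, where their medians were -0.39 and -0.47, and of 2 macrophage markers none was called in heart or on liver POD5 and both were higher on POD8. The part of these cell types in the rises of the receptors was not tested.

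Among markers of cell types known to carry CADM1, the dendritic cell markers rose in heart and 1 of 3 mast cell markers fell. The cross-presenting dendritic cell markers Xcr1 and Batf3 rose by 2.18 and 3.68, and their sum went from 239 to 309 in controls to 2226 to 5101 in allografts. In liver Batf3 alone passed on the brightest probes, at 1.29 and 1.74, and the sum went from 802 to 953 in controls to 1541 to 2165 on POD5 and 2230 to 2291 on POD8. A second, dimmer Xcr1 probe, A_52_P490159, lay above the liver controls on both days. It gave 23.1, 22.9 and 28.2 on POD5 and 61.9, 61.4 and 56.1 on POD8. The liver controls gave 12.6, 3.43 and 5.72, none of them well above background. Of the mast cell markers, Cpa3 fell by 1.68 in heart (adjusted P = 0.0246), while Cma1 at -0.69 and Mcpt4 at -1.44 did not pass. The sum of Cpa3, Cma1 and Mcpt4 was 398 to 824 in heart controls and 186 to 408 in allografts, which overlap. It was 21.8 to 32.3 in liver controls with none of the 3 well above background, 47.8 to 62.2 on POD5 and 50.2 to 123 on POD8. Of 3 endothelial markers 2 fell in heart, with the sum going from 5074 to 5903 in controls to 1325 to 2388 in allografts, while it was 2511 to 3444 in liver controls, 2764 to 4615 on POD5 and 3020 to 3452 on POD8. Of 3 epithelial markers (Krt19, Krt7 and Epcam) 2 fell in heart, and none was called in liver. What part these cells have in the values of Cadm1 and Pvr was not tested.

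**Figure D4:**
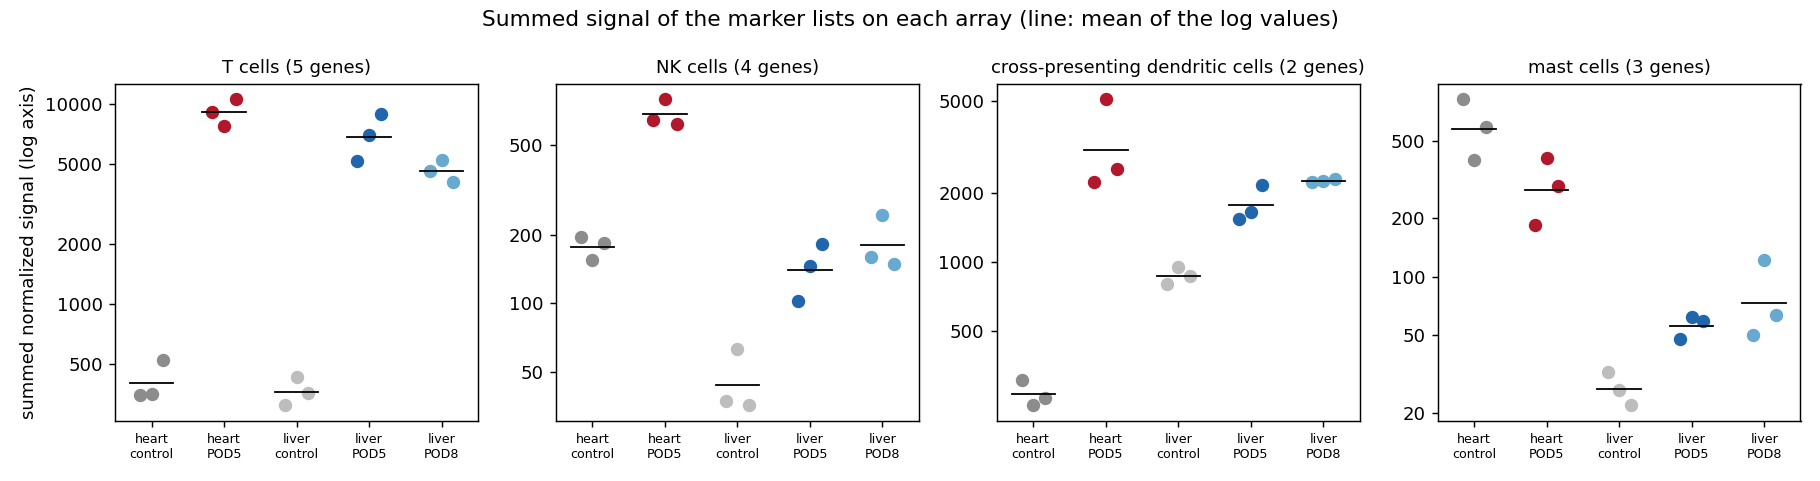
Summed normalized signal of 4 marker lists on a log axis, with 1 point per array and a line at the mean of the log values. The T cell sum lies at or below 521 in all controls and at or above 4053 in all allografts.

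The genes whose profile lay nearest to each receptor were named by the root mean square difference of log2 signals over the 15 arrays, after removing each gene's mean, among 14930 named genes measured in at least 1 group. For Crtam they were Il2rb (0.45), Gfi1 (0.47), Lck (0.51), Socs1 (0.52) and Cd3d (0.55). The differences of Il2rb from controls were 5.34 in heart, 4.05 on liver POD5 and 3.44 on POD8. For Cd96 they were Klrc3 (0.64), Gzma (0.66), Cd247 (0.67), Slamf7 (0.70) and Klrc1 (0.70), so that the lists of the 2 receptors had no gene in common. Crtam and Cd96 differed from each other by 1.13 on the same measure.

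The nearest genes of the brightest Cd226 probe were of another kind. They were Olfr1441 (0.19), Jph4 (0.23), Tmem239 (0.24), Man2a2 (0.24) and Krtap9-1 (0.25), which include an odorant receptor and a hair keratin-associated gene and no lymphocyte gene. For Cadm1 they were Slc35e2, Elovl5, N4bp2l1, Glud1 and Mtarc2, at 0.34 to 0.38. For Pvr they were Cyb5r1, Timm10, Shroom3, Timm17a and Lamtor3, at 0.21 to 0.25.

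**Figure D5:**
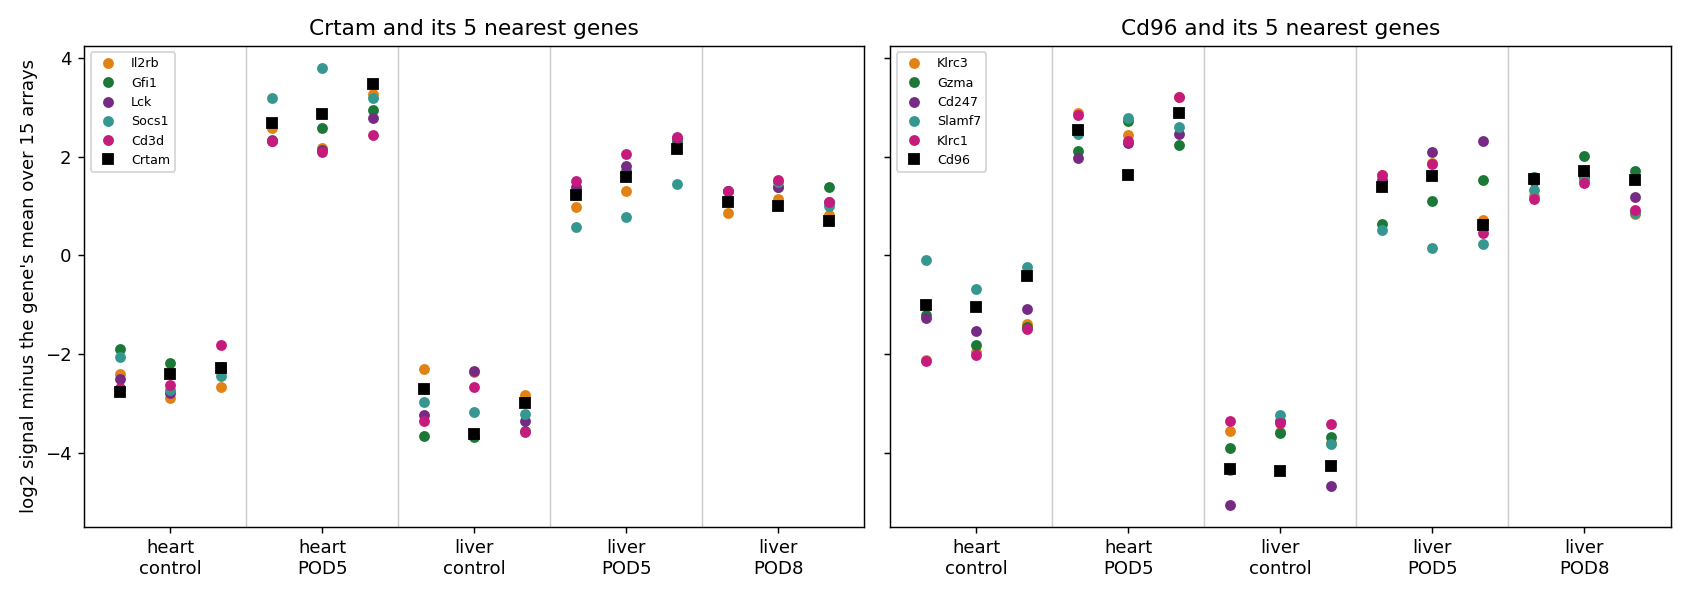
Log2 signal on each of the 15 arrays, minus the gene's own mean, for Crtam (left) and Cd96 (right) as black squares and their 5 nearest genes as coloured points. In the liver controls Cd96 lies lower relative to its mean than Crtam does, and Crtam is highest in the 3 heart allografts and Cd96 in 2 of them.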

How the data were processed

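The deposited files are the output of Agilent Feature Extraction 10.5.1.1 for each array, with a processed signal intensity per spot, which per the file headers had been background-subtracted by the scanner software, and flag values deposited beside it. Spots marked as outliers were dropped, spots of a probe were averaged, and log2 intensities were quantile normalized over the 15 arrays. One limma fit of the 5 groups gave the differences, with Benjamini-Hochberg adjustment over 41003 probes and a threshold of 0.05 (R 4.3.3, limma 3.58.1). Probes were named by matching their accession to RefSeq accessions, which named 26690 of 41174 probes (64.8%), and the brightest probe by its mean over all arrays stood for a gene. The adjusted P-values are those of limma. Members, gene lists, cell type markers and the rule for the nearest genes were chosen with earlier results of these data known. The calculations were tested on simulated data. Scan session was identical to slide and was not tried separately. The number of arrays limits the precision. The study's own method, SFC, and other settings were tried as alternatives. Figures were drawn with matplotlib 3.10.9.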

Additional observations from a re-analysis of the deposited data

Results flagged for a closer look

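In normalized signal the rise of the Cadm1 probe A_52_P116204 was 1.64 larger in heart than in liver on POD5, by the interaction of organ and allograft. This difference did not pass under normexp, and before normalization allografts and controls overlapped in both organs. Cd226 probe A_52_P416327 rose less in heart than in liver, by -2.24, but was not well above background in any liver control, so its rise in liver has no common base with that in heart. The same interaction gave -0.98 for Nectin3, 1.94 for Itgal and -2.92 for Epb41l3. For Itgal the larger rise in heart was not seen before normalization. Epb41l3 was called lower in heart and higher in liver. No liver control was well above background for it, so its changes in the organs likewise have no common base. Its heart call was lost with slide as a random block. Its liver calls were lost with normalization limited to the groups compared. The organs also differed in donor and recipient strain, and in heart and on liver POD5 the slide cannot be told apart from the group.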

How the results depend on the processing

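The brightest Cadm1 and Pvr probes stayed uncalled in liver under every alternative that gave a value. Crtam and Cd96 stayed above controls in both organs under these alternatives, from which nothing is read because that rise on the same arrays chose them. Replicate numbers did not pair the arrays: deviations of arrays with the same number correlated between -0.12 and 0.04. With the replicate number as a block (replicate block), the counts of probes called were 11437, 5780, 4290, 12, 6742 and 21913 for heart POD5, liver POD5, liver POD8, POD8 against POD5, the organ interaction and the control organs, against 11721, 6207, 4787, 12, 7393 and 22125 without it. The block changed no call of a member, such as Cd226 in heart at 1.49.

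With normalization and fit limited to the groups compared, liver POD5, liver POD8 and POD8 against POD5 gave 1506, 2238 and 0 probes, and the fitted Cd96 difference was 4.93 and 5.43 in liver. For the count of 0, limma at an unadjusted P under 0.05 gave 5273 probes. Scaling to the 75th percentile moved the median of all probes to 0.47, -0.37, -0.46, -0.14, 0.64 and -0.76 in the order above. It called 20689 probes in heart, 9672 and 13969 in liver and 16906 for the interaction, with Cd96 at 4.49 and 4.86 in liver. Higher probes then made up 73.8%, 31.2%, 20.6%, 80.7% and 31.5% of calls in heart, liver POD5, liver POD8, the interaction and the control organs, against 46.4%, 53.6%, 60.2%, 47.1% and 51.1%, and 72.8% on liver POD5 with normalization within the groups. Normexp, with its offset of 50, gave Crtam 3.58, 2.56 and 2.05, Cd96 1.76, 1.38 and 1.67, Cd226 in heart 0.44, and 7 probes between days. It turned the organ difference of Cd96 from -2.36 to 0.38.

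Slide as a random block called 7226, 3584, 6 and 4785 probes in heart, liver POD5, POD8 against POD5 and the interaction. Slide as a fixed block, and the slide shared by POD8 livers and controls, both chosen after the data were seen, each called 0 probes on POD8, where the fit of all groups called 4787. Fewer arrays enter both. At an unadjusted P under 0.05 limma gave 9222 probes in each. Bonferroni adjustment left 942, 379, 326, 6, 183 and 5233 probes, and Cd226 in heart (1.49) did not pass. The methods' t-test gave 231, 824 and 1 probes on liver POD5, POD8 and between days after Benjamini-Hochberg adjustment, and after Bonferroni adjustment, with the threshold of the study, 19 in heart, 6 and 14 in liver, 1 between days and 366 between control organs, without Cd226 in heart (1.49). SFC gave 241, 351, 367, 214 and 595 probes, without Cd226 (1.45). Between the control organs, the brightest probes of Cd226, Cadm1 and Pvr were not called by SFC or by the methods' t-test after Bonferroni adjustment. Cd226 and Pvr were not called there by limma after Bonferroni adjustment. The fitted Cd96 difference between the control organs, given without a test, was 0.43 under normexp against 3.51. The causes of these moves were not tested.

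Leaving out 1 array at a time, the Cadm1 difference in heart ran from 0.33 to 0.92, and passed only without heart allograft replicate 2. Counts ran from 3814 to 9034 on liver POD5 (lowest without POD5 replicate 1), from 2622 to 7280 on liver POD8 (lowest without POD8 replicate 2, also low at 2746 without replicate 1, and highest without liver control replicate 3), from 11 to 130 between days (highest without POD8 replicate 3, with 29 and 20 without POD5 replicates 1 and 2) and from 4745 to 9146 for the interaction (lowest without heart control replicate 3). The brightest Cd226 probe and the dim probes depend on the background correction, and signals of liver controls near background give bounds only.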
